A study of Mus musculus with 6 samples.

Results

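The BCL2 family members read here are 10 genes, chosen by their symbols among the 55367 genes of the deposited table. The survival members are Bcl2, Mcl1, Bcl2l1 and Bcl2a1b, the effectors are Bax and Bak1, and the BH3-only members are Bid, Bcl2l11, Bbc3 and Pmaip1. RNA was sequenced from leukemia stem cells (LSCs) of mice with acute myeloid leukemia (AML) driven by the MLL-AF9 fusion, with 3 libraries of WT and 3 of Piezo1cKO LSCs. Piezo1cKO donors were Mx1-cre; Piezo1 fl/fl mice given pIpC, which turns on Cre in blood cells and other tissues that respond to interferon, and WT donors were Piezo1 fl/fl mice given pIpC without the Cre transgene. Cre and the loss of Piezo1, which encodes a stretch-gated cation channel, therefore cannot be told apart. In both groups, lineage-negative marrow cells were given MLL-AF9 with YFP by retrovirus and transplanted, and LSCs were sorted by the gate YFP+ Lin- Sca-1- c-Kit+ CD16/32hi CD34+. The age given for the mice is 8 to 10 weeks, which in the paper is that of donors and recipients. The paper gives no age at sorting. The labels do not say that the 3 libraries of a group came from separate mice, so p-values measure only the spread between these libraries, which may be technical. The comparison answers how the transcripts of the family stood in Piezo1cKO against WT LSCs.

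The BCL2 family decides whether the outer mitochondrial membrane stays closed. Survival members such as BCL2, BCL-XL (from Bcl2l1), MCL1 and A1 (from the Bcl2a1 genes) hold the effectors BAX and BAK in check, and BH3-only proteins such as BIM (Bcl2l11), PUMA (Bbc3), NOXA (Pmaip1) and BID bind the survival members or engage the effectors directly. Once BAX and BAK open the membrane, cytochrome c leaves and caspases are switched on. MCL1 and BCL2 are relied on by many AML cells, and BCL2 is the target of venetoclax. Much of this control acts on the proteins, by cleavage of BID, degradation of MCL1 and binding between members, which transcripts do not show.

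Bcl2a1b is one of several Bcl2a1 genes on chromosome 9 whose sequences are nearly the same, so the start of the coding sequence is shown to let a reader see how few bases can tell their reads apart. The stretches are the first 60 coding bases from the GENCODE transcripts on GRCm38, written 5′ to 3′, with the positions that differ among the 3 genes in capitals. They lie at chr9:88957051-88957110 on the plus strand for Bcl2a1a, at chr9:89199360-89199419 on the plus strand for Bcl2a1b and at chr9:88731660-88731719 on the minus strand for Bcl2a1d.
Bcl2a1a: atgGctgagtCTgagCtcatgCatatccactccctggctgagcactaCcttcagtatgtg
Bcl2a1b: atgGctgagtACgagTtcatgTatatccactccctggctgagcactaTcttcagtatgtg
Bcl2a1d: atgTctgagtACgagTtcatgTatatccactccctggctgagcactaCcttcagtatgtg
Of the 516 coding bases before the stop codon, 12 differed among the 3 genes, 6 of them in the stretch shown. Bcl2a1b was 98.8% identical to Bcl2a1d and 97.9% identical to Bcl2a1a, and the longest run without a difference was 217 bases. A read from such a run fits all 3 genes, and how reads that fit several genes were counted is not given in the sources used here, so the values of each A1 gene are uncertain.

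Bcl2l11 and Bbc3 were the members with the lowest log2 fold changes, and Bax was a member that rose. The 250 bases before a RefSeq start of each are shown (GRCm38.p6, 5′ to 3′ on the gene's strand). These genes and starts are the ones whose windows matched the FOXO motif or p53 half-site below, so a match was part of the choice. Bcl2, the member with the largest rise, had no match and is not shown. Capitals mark a match to the FOXO motif GTAAACA in the first pair, which in Bbc3 reads TGTTTAC because it lies on the other strand, and to the p53 half-site in Bax. FOXO factors are known to switch on Bcl2l11 and Bbc3, and p53 is known to switch on Bbc3, Pmaip1 and Bax. The windows are chr2:128125788-128126037 on the plus strand, chr7:16310011-16310260 on the plus strand and chr7:45466899-45467148 on the minus strand.
Bcl2l11: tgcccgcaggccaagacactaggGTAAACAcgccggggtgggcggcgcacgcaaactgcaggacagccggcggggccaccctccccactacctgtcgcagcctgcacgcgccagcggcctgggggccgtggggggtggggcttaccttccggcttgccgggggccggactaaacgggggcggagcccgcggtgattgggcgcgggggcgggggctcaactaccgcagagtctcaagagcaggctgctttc
Bbc3: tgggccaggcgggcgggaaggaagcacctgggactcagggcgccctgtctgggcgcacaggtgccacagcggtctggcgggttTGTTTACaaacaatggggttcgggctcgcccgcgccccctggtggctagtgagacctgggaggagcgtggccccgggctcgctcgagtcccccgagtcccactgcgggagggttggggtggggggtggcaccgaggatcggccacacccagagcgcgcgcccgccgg
Bax: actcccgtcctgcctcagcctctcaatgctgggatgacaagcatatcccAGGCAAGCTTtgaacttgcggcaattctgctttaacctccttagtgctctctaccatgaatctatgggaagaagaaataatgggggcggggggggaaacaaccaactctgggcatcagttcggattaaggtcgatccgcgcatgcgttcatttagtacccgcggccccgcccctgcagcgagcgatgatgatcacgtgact
Both strands were searched over 14 windows of 9 members, each from 250 bases before a start to 50 after it. Pmaip1 was the member not searched. GTAAACA began 227 bases before the start in Bcl2l11 and 167 before it in Bbc3, and was in no other of these windows, against 3.65% of all 32851 RefSeq windows of that length. The p53 half-site began 201 bases before the start of Bax, with no match in the other windows searched, against 8.36% of all windows. The motif TGATGNAA, bound by ATF4, had 1 match, 40 bases before the start of Bcl2a1b, against 3.97% of all windows. A match is a description of letters and shows no binding.

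The table held log2 values of regularized-log form, which pull the libraries of a gene together, so both these values and the whole reads recovered from them are given. Recovery gave whole numbers (within 0.1) for 92.9% of values of genes with a mean of at least 1 read, and libraries of 14112123 to 15483611 reads. A normalised read count is the recovered count divided by the size factor of its library. Piezo1, the targeted gene, had 104, 92 and 113 recovered reads in the WT libraries and 35, 58 and 45 in the Piezo1cKO libraries, so all 3 were lower and none was at 0. Its log2 fold change was -0.29 ± 0.04 (SE) on the deposited scale (limma, adjusted p = 5.8e-06), over a whole gene of which the deleted part was not separated here.

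Among the 10 members, Bcl2, Bax and Pmaip1 rose in Piezo1cKO LSCs and Bbc3, Bcl2l11, Bcl2l1, Mcl1 and Bcl2a1b fell. Bak1 and Bid did not pass the test. The 2 largest falls were of the BH3-only genes Bcl2l11, with 25.4% of the WT normalised reads, and Bbc3, with 38.1%, while the largest rise was of the survival gene Bcl2, to 156% of WT. Members of each class thus moved in both directions, apart from the effectors, where 1 rose and 1 was not called.

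At an adjusted p below 0.05 on the deposited scale, 8 of 10 members were called (limma with trend, Benjamini-Hochberg over 16746 genes), against 63.0% of all genes tested. The members higher were 3 of 10, against 31.6% of all genes, and those lower were 5 of 10, against 31.4%. All 10 members passed the filter on low values. In 9 of 10 members the values of the groups did not overlap, against 66.6% of all genes, so neither share stood far from the background of this comparison. Centring each library on its median moved the split over all genes from 5298 higher and 5258 lower to 6450 higher and 4214 lower, and left the members at 3 and 5. The median log2 fold change of the members was -0.12 on the deposited scale and -0.21 on recovered reads, where the medians over all genes were 0.00 and -0.00. The median size of change, regardless of sign, was 0.19 for the members and 0.09 for all genes on the deposited scale, and 0.43 and 0.44 on recovered reads.

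With the added condition of an absolute log2 fold change above 1, no member was called on the deposited scale, where 0.818% of genes were, and 9 of 10 had an unadjusted limma p below 0.05, against 66.6% of all genes. On recovered reads the same condition called Bcl2a1b, Bcl2l11 and Bbc3, all lower, against 24.9% of 17352 genes called in either direction, 12.2% lower and 12.7% higher. The plot of change on both scales shows how far the deposited values draw in the genes with fewer reads.

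**Figure D1:**
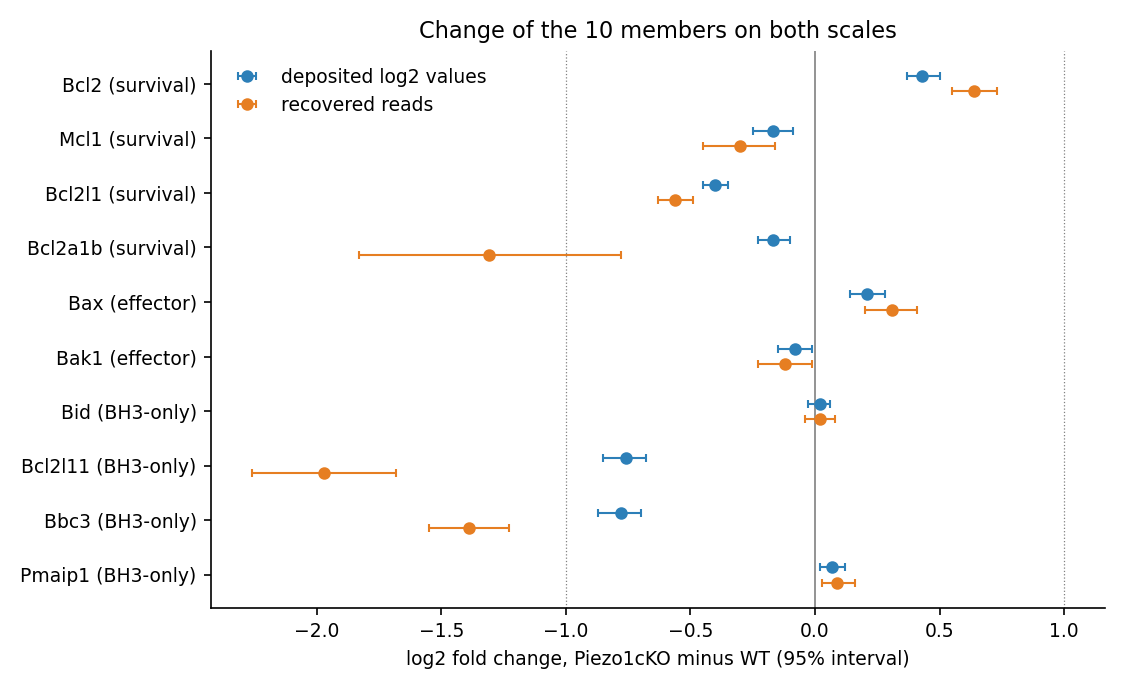
Log2 fold change, Piezo1cKO minus WT, of each member (points) with its 95% interval (bars) from limma on the deposited values and on recovered reads, 3 libraries a group; dotted lines mark a change of 1. Bcl2l11, Bbc3 and Bcl2a1b lie below -1 on recovered reads only, and the intervals of Bid cross 0.

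Levels between genes were compared per length, as RPKM, reads scaled to exon length and library size, with the exons of all isoforms joined. In WT LSCs the order of mean RPKM was Pmaip1 at 133 ± 2.91 (SD, n = 3), Bid at 97.2 ± 1.83, Bax at 67.2 ± 2.05 and Bcl2l1 at 56.2 ± 1.02. Below them came Bak1 at 24.6 ± 1.36, Bbc3 at 20 ± 0.752, Mcl1 at 8.78 ± 0.357 and Bcl2 at 8.08 ± 0.252. Bcl2a1b at 3.46 ± 0.103 and Bcl2l11 at 2.18 ± 0.184 were lowest. No neighbours in the WT order had overlapping libraries. In Piezo1cKO LSCs Bcl2, at 12.6 ± 0.238, stood above Bbc3, at 7.63 ± 0.714, and Mcl1, at 7.13 ± 0.43, and the last pair overlapped. The first 5 and the last 2 places were held by the same genes in the same order. Bcl2 and Bcl2l11 have joined exons of 9157 and 8029 bases, the longest of the 10, so their RPKM depends most on how much of the annotated exons these cells use.

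**Figure D2:**
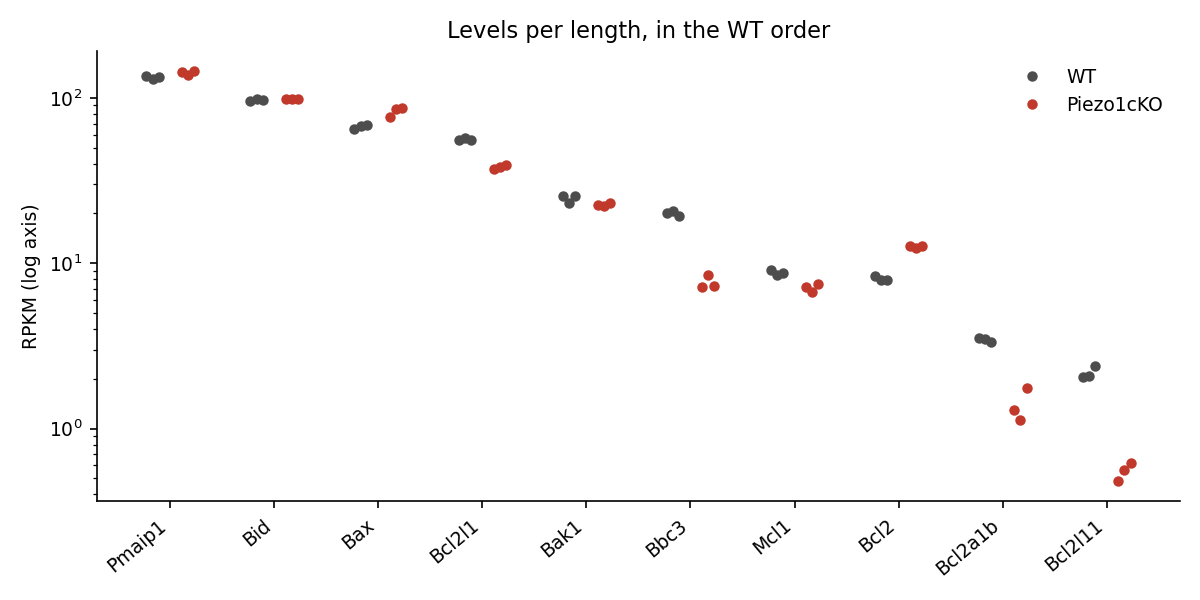
RPKM (log axis) of each member in the 3 WT and 3 Piezo1cKO libraries (points), in the order of the WT means. Bcl2 moves above Bbc3 and Mcl1 in Piezo1cKO LSCs, and Bcl2l11 is lowest in both groups.

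Bcl2 (chr1:106538178-106714274, minus strand), the founding survival gene, was the one survival member that rose. It had 1135.2, 1078.8 and 1073.7 normalised reads in the WT libraries and 1723.7, 1667.8 and 1723.7 in the Piezo1cKO libraries. Every Piezo1cKO library was above every WT library, and the means differed by 1.56-fold. On the log2 scale it rose by 0.43 ± 0.03 (SE) in the deposited values (limma, adjusted p = 5.77e-10) and 0.64 ± 0.04 on recovered reads. In bulk RNA, more cells of a type and more RNA per cell cannot be told apart, here and for each gene below.

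Bcl2l1 (chr2:152780668-152831728, minus strand), which encodes BCL-XL and by splicing the shorter BCL-XS, was the most abundant survival member per length in both groups. It had 3796.8, 3896.4 and 3762.6 normalised reads in WT and 2520.7, 2590.9 and 2658.8 in Piezo1cKO libraries. The groups did not overlap, and Piezo1cKO LSCs held 67.8% of the WT mean. In log2 terms this was -0.40 ± 0.03 (SE) on the deposited scale (limma, adjusted p = 2.08e-10) and -0.56 ± 0.03 on recovered reads. Counts per gene join its isoforms, so the splice forms were not told apart.

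Mcl1 (chr3:95658788-95663176, plus strand) encodes a short-lived survival protein that binds NOXA, BIM and BAK. Its normalised reads were 463.8, 427.9 and 442.5 in WT and 363.5, 338.2 and 381.6 in Piezo1cKO libraries. All Piezo1cKO libraries were below all WT libraries, at 81.2% of the WT mean. The log2 fold change was -0.17 ± 0.04 (SE) on the deposited scale (limma, adjusted p = 0.000771) and -0.30 ± 0.07 on recovered reads.

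Bcl2a1b (chr9:89199209-89207827, plus strand) was the survival member with the fewest reads. It had 44, 42 and 42 recovered reads in WT and 15, 14 and 21 in Piezo1cKO libraries, so the groups did not overlap and the mean of normalised reads in Piezo1cKO LSCs was 40.4% of WT. On deposited values it fell by 0.17 ± 0.03 (SE; limma, adjusted p = 0.000129), whereas on recovered reads the log2 fold change was -1.31 ± 0.25. Of its exon bases, 49.1% also belong to the same-strand gene Gm29094, which was listed at 0 in all libraries. Bcl2a1d, nearly the same in sequence as shown above, had 129, 109 and 158 reads in WT and 27, 30 and 34 in Piezo1cKO libraries and fell by 0.53 on the deposited log2 scale (limma, adjusted p = 5.58e-09). Bcl2a1a had 65, 39 and 49 against 51, 55 and 48 reads and did not pass the test (limma, adjusted p = 0.777). The A1 genes are known to be expressed in maturing neutrophils. In the list of mature neutrophil markers 4 of 5 tested genes also fell, against 31.4% of all genes, and Mmp8 rose by 1.82 in log2. The summed RPKM of the list was 153 to 155 in WT and 35.1 to 36.9 in Piezo1cKO libraries. Of the 6 markers, Ly6g had no more than 3 reads in any library, and the Lin- c-Kit+ gate would leave out mature neutrophils. The part of such cells in the A1 values was not tested.

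Bax (chr7:45461697-45466898, minus strand), the effector that moves from the cytosol to mitochondria, rose. Its normalised reads were 1516.6, 1582.4 and 1609.5 in WT and 1789.5, 2007.0 and 2034.0 in Piezo1cKO libraries, with no overlap and a mean 1.24-fold that of WT. Bax thus rose by 0.21 ± 0.03 (SE) on the deposited log2 scale (limma, adjusted p = 3.44e-05) and 0.31 ± 0.05 on recovered reads. Its recovered values lay up to 0.42 from a whole number, unlike the other 9 members, so the reads of Bax are approximate.

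Bak1 (chr17:27019810-27029009, minus strand), the effector that resides in the outer mitochondrial membrane, had 905.3, 822.5 and 907.2 normalised reads in WT and 807.5, 791.5 and 820.1 in Piezo1cKO libraries. The lowest WT library, the second, was just above the highest Piezo1cKO library. The log2 fold change of -0.08 ± 0.03 (SE; 95% interval -0.15 to -0.01) did not pass the test (limma, adjusted p = 0.0536). Without WT replicate 2 it was -0.11 and passed (limma, adjusted p = 0.0154). Bak1 shares 25.5% of its exon bases with Ggnbp1 on the opposite strand, and the library preparation described does not mark strand, but Ggnbp1 had a mean of 12.8 reads.

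**Figure D3:**
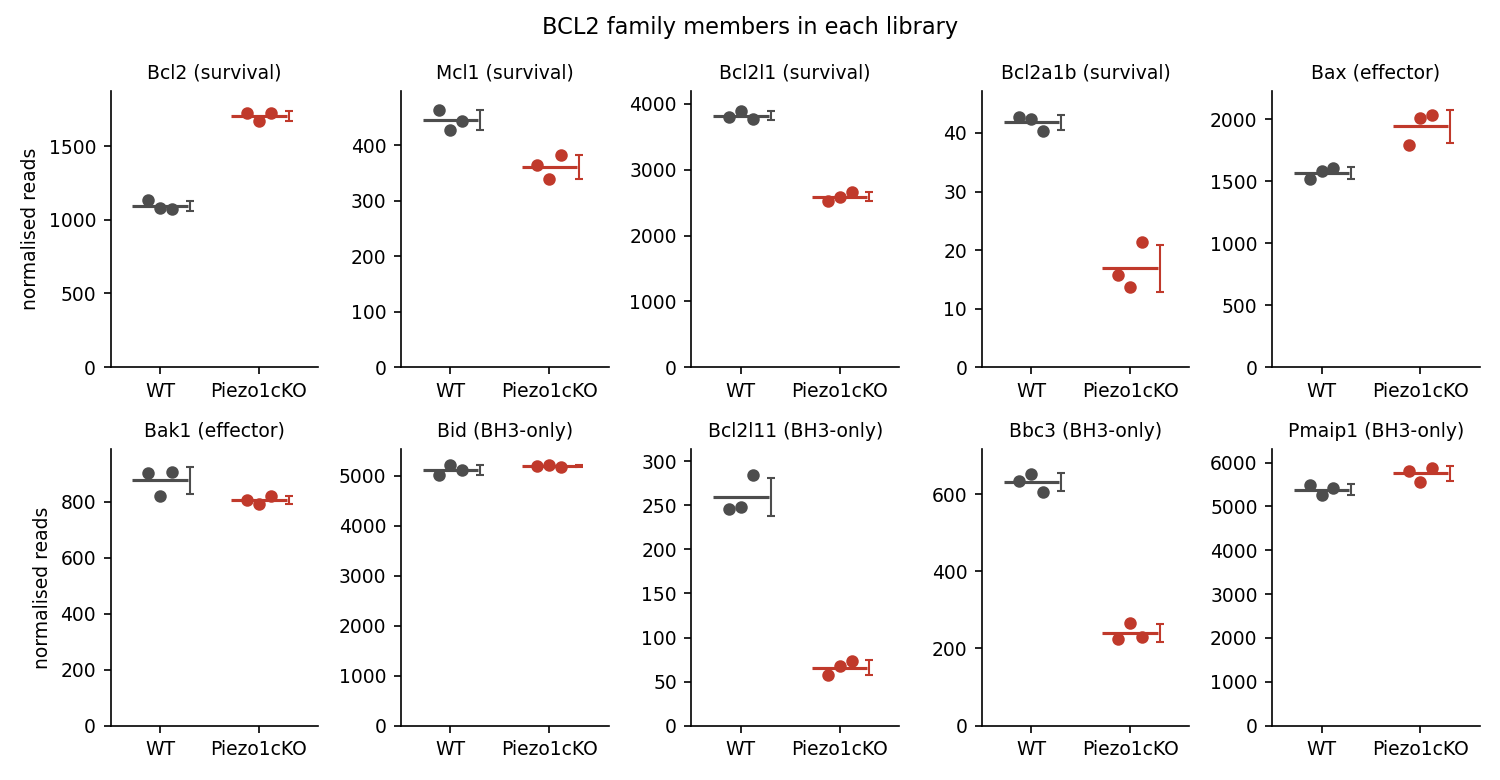
Normalised reads of each member in the 3 WT and 3 Piezo1cKO libraries (points), with the mean (line) and SD (bar beside it) of each group; every axis starts at 0. The groups of Bcl2, Bcl2l1, Bcl2l11 and Bbc3 lie far apart, and those of Bid overlap.

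Bcl2l11 (chr2:128126038-128162547, plus strand) encodes BIM, which binds every survival member and engages BAX directly. It had 245.5, 248.3 and 284.8 normalised reads in WT and 57.46, 67.26 and 73.26 in Piezo1cKO libraries. The highest Piezo1cKO library was far under the lowest WT library, and the WT mean was 3.93-fold the Piezo1cKO mean. The log2 fold change was -0.76 ± 0.04 (SE) on the deposited scale (limma, adjusted p = 1.71e-11) and -1.97 ± 0.14 on recovered reads. Of the 16746 genes tested on the deposited scale, 184 had a lower log2 fold change. The rank was less extreme on recovered reads, where 1320 of 17352 genes had a lower one.

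Bbc3 (chr7:16308393-16318205, plus strand) encodes PUMA, which also binds every survival member and is a classic p53 target. Normalised reads were 634.6, 651.9 and 605.1 in WT and 225.6, 266.1 and 228.9 in Piezo1cKO libraries, again without overlap, and the WT mean was 2.62-fold the Piezo1cKO mean. The log2 fold change was -0.78 ± 0.04 (SE) on the deposited scale (limma, adjusted p = 5.02e-12) and -1.39 ± 0.08 on recovered reads. On the deposited scale, 171 of 16746 genes had a lower log2 fold change than Bbc3, and on recovered reads 1785 of 17352 did.

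Pmaip1 encodes NOXA, which binds MCL1 and A1, and was the member with the most reads per length. It had 5490.9, 5258.8 and 5409.7 normalised reads in WT and 5809.3, 5566.8 and 5885.4 in Piezo1cKO libraries. The groups did not overlap, but the rise was only to 107% of WT, or 0.07 ± 0.02 in log2 (SE; limma, adjusted p = 0.0167) by the deposited values and 0.09 ± 0.03 on recovered reads. The call was lost without WT replicate 2 (limma, adjusted p = 0.0818) and without Piezo1cKO replicate 3 (limma, adjusted p = 0.0862).

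Bid (chr6:120891930-120916853, minus strand) encodes a BH3-only protein that caspase-8 cleaves into its active form, linking death receptors to mitochondria. It had 5018.4, 5210.4 and 5106.6 normalised reads in WT and 5187.7, 5204.2 and 5166.0 in Piezo1cKO libraries, and the groups overlapped. With a log2 fold change of 0.02 ± 0.02 (SE; 95% interval -0.03 to 0.06; limma, adjusted p = 0.571), Bid did not pass the test. Of its exon bases, 17.7% are shared with Bcl2l13 on the opposite strand, which had a mean of 628 reads.

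The balance of the classes was read from RPKM summed within each class in each library, as a description without a test, since 3 against 3 libraries cannot give an exact two-sided permutation p below 0.1. The 4 survival members summed to 76.9, 77.2 and 75.4 RPKM in WT and to 58.3, 58.2 and 61.1 in Piezo1cKO libraries, a ratio of means of 0.774 ± 0.024 (SD from both groups). The 2 effectors summed to 90.3, 90.8 and 94.4 in WT and 99.3, 108 and 110 in Piezo1cKO libraries, a ratio of 1.15 ± 0.0686. The 4 BH3-only members summed to 253, 252 and 252 in WT and 250, 245 and 251 in Piezo1cKO libraries, a ratio of 0.986 ± 0.0126. The survival sum was therefore lower, the effector sum higher, and the BH3-only sum close to level. The last hides its parts, because Pmaip1 and Bid made up 52.7% and 38.5% of it in WT, while Bbc3 went from 7.94% to 3.07% and Bcl2l11 from 0.864% to 0.223%.

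Survival over BH3-only RPKM was 0.304, 0.307 and 0.299 in WT and 0.233, 0.237 and 0.243 in Piezo1cKO libraries, and survival over effector RPKM was 0.852, 0.85 and 0.799 against 0.587, 0.538 and 0.555. Both ratios were lower in every Piezo1cKO library than in any WT library. Within the survival class, Bcl2l1 went from 73.4% to 64.4% of the sum and Bcl2 from 10.6% to 21.2%. Mcl1 held 11.5% and 12%, and Bcl2a1b 4.52% and 2.35%. The sum leaves out the other A1 genes, Bcl2a1d, at 10.1 RPKM in WT and 2.4 in Piezo1cKO LSCs, and Bcl2a1a, at 4.11 and 4.28. Bcl2a1b alone therefore does not give the level of A1 transcripts. Bcl2 over Bcl2l1 was 0.15, 0.139 and 0.143 in WT and 0.342, 0.322 and 0.325 in Piezo1cKO libraries, a ratio of means of 2.29 ± 0.117. When the sums were taken over reads not divided by length, the survival ratio was 0.865 and the direction was the same.

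Ratios of single pairs went in differing directions. Bcl2 over Bcl2l11 was 4.05, 3.81 and 3.31 in WT and 26.3, 21.7 and 20.6 in Piezo1cKO libraries, 6.15 ± 1.02 times as high. Bcl2l1 over Bbc3 was 2.77, 2.77 and 2.88 against 5.17, 4.51 and 5.38, which is 1.79 ± 0.167 times as high even though Bcl2l1 itself fell. Mcl1 over its partner Pmaip1 was 0.0675, 0.065 and 0.0654 against 0.05, 0.0486 and 0.0518, or 0.76 ± 0.0292 of WT. Bcl2 over Bax was 0.129, 0.117 and 0.115 against 0.166, 0.143 and 0.146, or 1.26 ± 0.129 times WT. None of the pair ratios had overlapping groups, and they are ratios of transcripts, not of proteins.

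**Figure D4:**
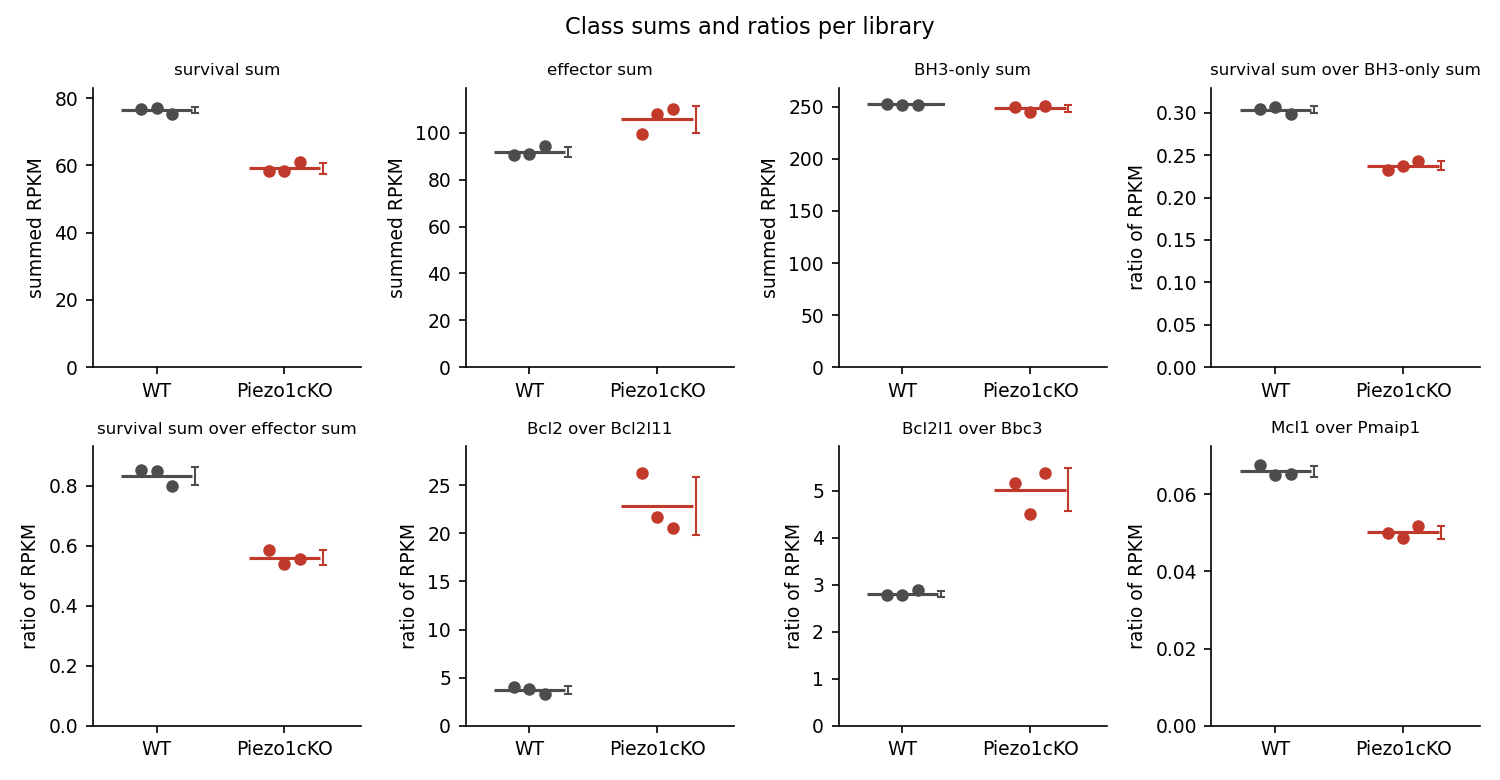
Summed RPKM of the classes and ratios of RPKM between classes and pairs in the 3 WT and 3 Piezo1cKO libraries (points), with mean (line) and SD (bar beside it); every axis starts at 0. The survival sum is lower in Piezo1cKO LSCs, the BH3-only sum is nearly level, and Bcl2 over Bcl2l11 is several times higher.

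Of 15 further BCL2 family genes, 12 passed the filter on low values, and 5 rose, 2 fell and 5 did not pass the test. The 58.3% called was below the 63.0% of all genes, and the median deposited log2 fold change was 0.02. Among BH3-only genes, Bmf, whose protein BMF is linked to the cytoskeleton, had 48, 47 and 44 reads in WT and 106, 92 and 99 in Piezo1cKO libraries and rose by 0.29 on the deposited log2 scale (limma, adjusted p = 2.51e-06). It thus went the other way from Bcl2l11 and Bbc3. Bad, at 0.03 (limma, adjusted p = 0.414), and Bik, at -0.02 (limma, adjusted p = 0.358), did not pass. Hrk was listed at 0 in all libraries, and Bcl2l10 and Bcl2l15 had too few reads to be tested.

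Bok, an effector that acts without the restraint of most survival members, had 2, 2 and 3 reads in WT and 31, 42 and 37 in Piezo1cKO libraries. Against a floor of 3 reads per library it was at least 12.6-fold higher, and its deposited log2 fold change was 0.25 (limma, adjusted p = 1.45e-07). Per length it stayed far under Bax, at 0.0837 RPKM in WT and 1.36 in Piezo1cKO LSCs. The mitophagy receptors Bnip3 and Bnip3l, both known to be induced in low oxygen, rose by 0.17 and 0.23 on the deposited scale (limma, adjusted p = 0.000355 and 4.45e-07), and Bcl2l14 rose by 0.21 (limma, adjusted p = 8.44e-05). Besides Bcl2a1d, Bcl2l13 fell, with a log2 fold change of -0.24 (limma, adjusted p = 5.94e-06). The survival gene Bcl2l2, which encodes BCL-W, had a log2 fold change of -0.10 (limma, adjusted p = 0.0766), and Bcl2l12 had one of -0.06 (limma, adjusted p = 0.154).

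In 6 lists of pathway genes around the family, 46 of 48 genes were tested, of which 10 rose, 24 fell and 12 did not pass. That is 73.9% called against the 63.0% of all genes, with a median log2 fold change of -0.09 against 0.00. With the added condition on size none was called in the deposited values, where 34 of 46 had an unadjusted limma p below 0.05, against 66.6% of all genes. On recovered reads that condition called Tnfrsf10b as higher and Fas, Ddit3 and Foxo1 as lower. These were 1 and 3 of 46, against 12.7% of all genes higher and 12.2% lower, so fewer than the background share.

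Of 11 tested upstream regulators of family genes, 8 fell and 2 rose, against 31.4% of all genes lower and 31.6% higher, with a median of -0.19 against 0.00. Ddit3, which encodes CHOP, an inducer of Bcl2l11 and Bbc3 under stress of the endoplasmic reticulum, had 325, 282 and 285 reads in WT and 78, 80 and 79 in Piezo1cKO libraries, a log2 fold change of -0.77 (limma, adjusted p = 5.68e-12). Atf4, which acts above it, fell by 0.44 on the log2 scale (limma, adjusted p = 1.27e-09). Trp53, which encodes p53, had 1656, 1525 and 1622 reads against 1063, 1232 and 1108, a log2 fold change of -0.31 (limma, adjusted p = 1.12e-07). Its target and inhibitor Mdm2 fell by 0.30 (limma, adjusted p = 4.81e-07).

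The regulators Foxo3 and Stat5a were the 2 that rose. Foxo3, a FOXO factor, had 1385, 1298 and 1339 reads in WT and 1735, 1992 and 1934 in Piezo1cKO libraries and rose by 0.37 on the log2 scale (limma, adjusted p = 7.87e-09). Foxo1 had 37, 38 and 46 reads against 9, 32 and 22 and fell by 0.12 (limma, adjusted p = 0.00741), a call lost without Piezo1cKO replicate 1, where it was -0.08 (limma, adjusted p = 0.0582). Levels of transcripts say nothing of where FOXO proteins were or of whether p53 was stable. The shares of these regulators in the fall of Bcl2l11 and Bbc3 were not tested.

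Around the mitochondrion, 5 of 7 partners fell and none rose, with a median of -0.12 against 0.00 for all genes. The 71.4% called, all lower, stands against 63.0% of all genes called in either direction and 31.4% called lower. The 5 were Vdac1, Vdac3, Immt, Opa1 and Mtch2, and Vdac3, a channel of the outer membrane, and Immt, a scaffold of the inner membrane folds, each fell by 0.22 (limma, adjusted p = 5.08e-07 and 7.51e-07). Of the apoptosome and caspase genes, Casp6, which encodes an executioner protease, rose by 0.32 (limma, adjusted p = 1.69e-07). Cycs, which encodes the cytochrome c that BAX and BAK release, had a log2 fold change of -0.13 (limma, adjusted p = 0.000361).

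Of 9 caspase inhibitors and released factors, Birc3 and Birc6 rose and 4, which were Birc5, Xiap, Htra2 and Endog, fell. The 66.7% called was near the 63.0% of all genes, where 31.6% were higher and 31.4% lower. Birc3, which encodes the inhibitor cIAP2, rose by 0.20 (limma, adjusted p = 4.99e-05) and Birc5, which encodes survivin, fell by 0.20 (limma, adjusted p = 5.68e-06). Among genes that set the turnover of MCL1, Huwe1, a ligase that marks MCL1 for degradation, rose by 0.12 (limma, adjusted p = 0.00396). Usp9x, which removes that mark, had a log2 fold change of -0.33 (limma, adjusted p = 1.82e-06), and Bag6 also fell, while Fbxw7 did not pass.

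The death receptor arm, which reaches the family through BID, had 3 genes that rose and 3 that fell among 8. That is 75% called against 63.0% of all genes, with 31.6% of all genes higher and 31.4% lower. Fas, the receptor for FAS ligand, had 230, 192 and 169 reads in WT and 29, 31 and 40 in Piezo1cKO libraries, so the WT mean was 5.73-fold the Piezo1cKO mean of normalised reads. Its log2 fold change was -0.77 on the deposited scale (limma, adjusted p = 8.75e-11) and -2.50 on recovered reads, the lowest of any gene in the 6 lists on the latter scale. Ripk1 fell by 0.28 (limma, adjusted p = 1.18e-06). Casp8, whose protease cleaves BID, rose by 0.26 (limma, adjusted p = 1.08e-06), and so did its inhibitor Cflar, by 0.31 (limma, adjusted p = 8.87e-08). Tnfrsf10b, the mouse TRAIL receptor, had 6, 11 and 7 reads against 24, 16 and 15, and its call (limma, adjusted p = 0.0111) was lost without WT replicate 1 (limma, adjusted p = 0.0504) and without Piezo1cKO replicate 1 (limma, adjusted p = 0.0651). Fadd fell by 0.09 (limma, adjusted p = 0.0267) and lost its call in the fits without WT replicate 1, 2 or 3 or Piezo1cKO replicate 3, at adjusted p values of 0.061 to 0.166 (limma).

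**Figure D5:**
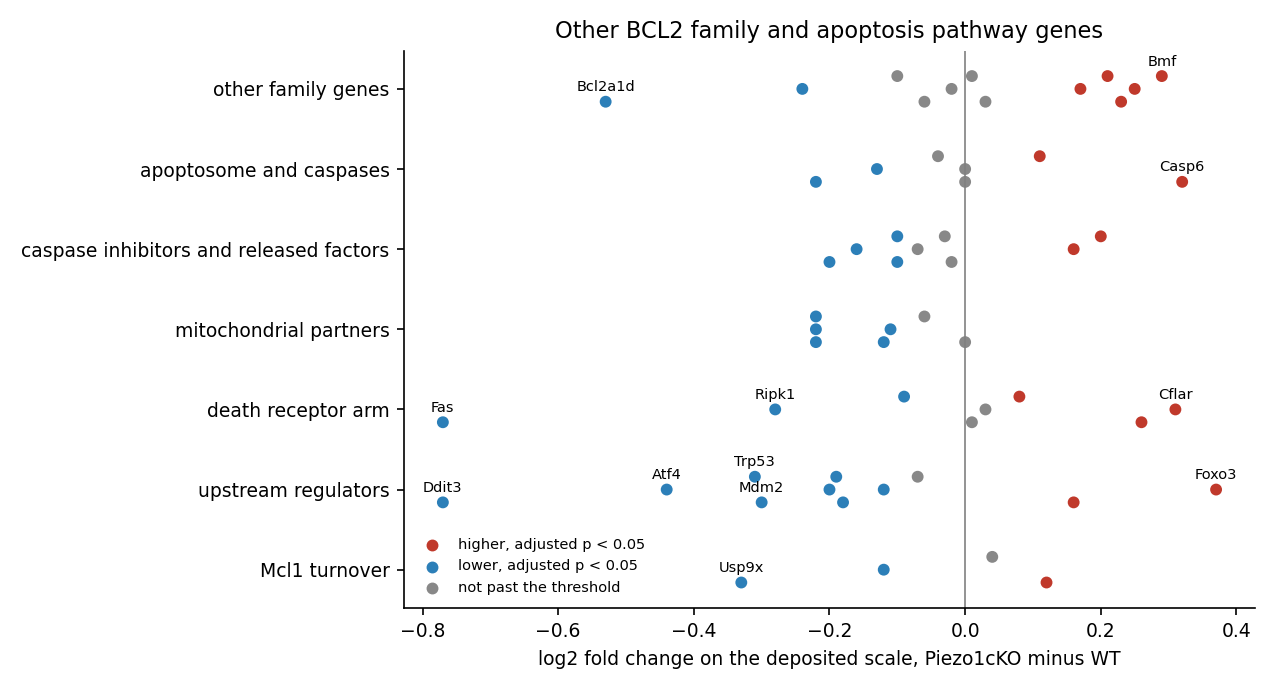
Log2 fold change on the deposited scale, Piezo1cKO minus WT, of each tested gene (point) of the other BCL2 family genes and the 6 pathway lists, 3 libraries a group; colour shows genes higher, lower or not past a limma adjusted p of 0.05. Fas and Ddit3 lie lowest, at -0.77, and Foxo3 highest, at 0.37; names are given for genes beyond 0.26 in either direction.

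Genes of the gate and of other cell types also differed between the groups. The counts below stand against 63.0% of all genes called, 31.6% higher and 31.4% lower. Of the 7 LSC and progenitor markers, 3 rose and 2 fell. Kit rose by 0.31, Cd34 by 0.46 and Ptprc by 0.15 on the deposited log2 scale (limma, adjusted p = 8.42e-09, 8.32e-12 and 9.36e-05). Fcgr2b fell by 0.75 (limma, adjusted p = 1.29e-13), to 48.1% of the WT normalised reads, and Meis1 fell by 0.13 (limma, adjusted p = 0.00278). Fcgr3, which with Fcgr2b encodes the receptors seen by antibodies to CD16/32, did not pass the test (limma, adjusted p = 0.574). Ly6a, which encodes the Sca-1 that the gate leaves out, had 1, 1 and 0 reads in WT and 10, 17 and 7 in Piezo1cKO libraries and rose by 0.08 on the deposited scale (limma, adjusted p = 0.000535). The summed RPKM of the 7 LSC and progenitor markers was 357 to 366 in WT and 358 to 371 in Piezo1cKO libraries. The mast cell and basophil markers, 3 of 4 higher, summed to 31.6 to 34.4 RPKM in WT and 233 to 249 in Piezo1cKO libraries. The B cell markers, 3 of 3 tested higher and mostly Ighm and Cd79b, summed to 455 to 467 and 826 to 841, with Ms4a1 at no more than 3 reads in every library. The T and NK cell markers, 2 lower and 1 higher of 3 tested, summed to 295 to 308 and 181 to 184, with Cd3e, Cd3g, Cd4 and Cd8a at no more than 3 reads. Nearly all of that sum was Nkg7, at a mean RPKM of 302 in WT and 181 in Piezo1cKO LSCs. Cd3d also fell, from 7, 5 and 4 reads to 0, 2 and 0. Klrb1c rose, from 0 reads in every WT library to 32, 38 and 52 in Piezo1cKO libraries. The macrophage markers, 2 of 4 higher, summed to 224 to 232 and 269 to 280, with C1qa at 0, and the erythroid markers, 1 of 4 lower, to 4.61 to 5.31 and 1.47 to 2.13. BCL2 is known to be low in maturing granulocytes and high in lymphoid cells, and the part of these lists in the values of Bcl2, Bcl2l1, Bcl2l11 and Bbc3 was not tested.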

How the data were processed

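The authors sorted LSCs, made polyA libraries based on Smart-seq2 with Tn5 fragmentation and, per the labels' processing notes, used fastp 0.20.1, HISAT2 2.2.1, featureCounts 2.0.1 and DESeq2 1.28.1 with GRCm38. The deposited table holds 1 log2 value per gene and library, of regularized-log form as judged from the values, which draws the libraries of a gene together, most for genes with few reads. Of 55367 genes, 28965 were at 0 in all libraries. No sample column was left unused.

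The shrinkage was undone numerically to whole reads, a step tested on simulated data. The main test was limma 3.58.1 (R 4.3.3, lmFit and eBayes with trend, no covariate, no pseudocount) on deposited values, kept for the 16746 genes averaging 1 or more, with Benjamini-Hochberg adjustment over all of them. Limma-voom on recovered reads (17352 genes with at least 10 reads in all) was the alternative scale. RPKM used GENCODE M21 exons and library sizes set by the recovered size factors. Precision is limited by 3 libraries a group. Named were all 10 members, the other family genes, and from each pathway list genes past both thresholds or else the 2 with the largest change at adjusted p below 0.05. Trp53, Mdm2, Foxo3, Foxo1, Stat5a, Tnfrsf10b, Casp8, Ripk1, Fadd, Cycs, Birc6, Bag6 and the genes named without values were added after their values were seen. The members and lists were chosen with earlier results of these data known. Some listed genes are not reported here.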

Additional observations from a re-analysis of the deposited data

How the results depend on the processing

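The calls of Bcl2, Mcl1, Bcl2l1, Bcl2a1b, Bax, Bcl2l11 and Bbc3 kept their direction and side of the threshold under every alternative run in which the gene was tested, including centred library medians, no filter, the replicate block, recovered reads, and each library left out. Over the 10 members, 180 of 189 values kept both, 4 lost a call, all of Pmaip1, and 5 gained one, all of Bak1. Bak1 was called with the block (limma, adjusted p = 0.0258), with a filter of at least 50 recovered reads on average (limma, adjusted p = 0.0411), which left out Bcl2a1b, and without WT replicate 2. The numbers 1 to 3 are not shown to pair the libraries. Deviations of same-numbered libraries correlated at 0.195, 0.161 and 0.0696 across genes, each library best with its own number, as a hint from the data. With the replicate block, 5542 genes were higher and 5513 lower, and 3 members were higher and 6 lower.

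With both thresholds, 43 genes were higher and 94 lower on the deposited scale, against 2212 and 2110 on recovered reads. The members called were 0 higher and 0 lower, against 0 and 3, and the other family and pathway genes were 0 and 0, against 3 and 4. The filter of 50 reads left 3510 genes higher, from fewer genes tested. Without division by length, the Piezo1cKO over WT ratio was 0.865 for the survival sum, 0.876 for survival over BH3-only and 0.771 for survival over effectors. Leaving out 1 library moved the survival ratio between 0.761 and 0.78. Bcl2a1a, which had no call, changed sign when WT replicate 2 was left out, with a range over the libraries left out of -0.02 to 0.05 on the deposited scale. Bcl2l2 was called with the block (limma, adjusted p = 0.0219) and without Piezo1cKO replicate 1, at -0.15 (limma, adjusted p = 0.0168). Fadd lost its call with no filter (limma, adjusted p = 0.0517) and with centred medians (limma, adjusted p = 0.0878). The deposited scale and the 14 to 44 reads of Bcl2a1b limit what can be said of the size of its change.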
